A study of Mus musculus with 4 samples.

Results

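The 31 genes described here are interferon response genes, measured in single cells from mouse colon. They come from a list of 32 genes chosen by name, of which 31 are in the feature table of 32285 genes, and Mx1 was not analysed here. A list of 19 genes induced mainly by type I interferon (called the type I list), a list of 9 guanylate-binding protein (GBP) and immunity-related GTPase (IRG) genes, and 3 genes common to both programmes (Irf1, Zbp1 and Parp14) were kept apart. Cells were enriched for CD11b at steady state, either from colonic lamina propria (LP) or from small lymphoid follicles of the gut wall, the solitary isolated lymphoid tissues (SILT). The wild-type groups were Csf2+/+ and the others Csf2-/-, which lack the cytokine CSF2 (GM-CSF) in all cells, and all carried the CX3CR1-GFP/+ and CCR2-RFP/+ reporter alleles. The design text gives 5 mice, without saying how they were divided among libraries, and each of the 4 groups is 1 library. Differences between groups therefore have no replicate check, and every interval printed below covers counting error only.

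Interferons act through cell-surface receptors and JAK kinases. Targets of type I interferons often carry a promoter sequence called the interferon-stimulated response element (ISRE), and targets of interferon gamma one called the gamma-activated site (GAS). Type I targets such as Isg15, the Ifit genes and Rsad2 act against viruses, while GBP and IRG proteins are GTPases that attack vacuoles of intracellular microbes. In the intestine, tonic signalling from the microbiota keeps some of these genes on without infection.

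The libraries held 4439 wild-type LP, 1967 Csf2-/- LP, 7578 wild-type SILT and 2368 Csf2-/- SILT cells, with medians of 5816.5 to 9961 transcript molecules (unique molecular identifiers, UMIs) per cell. Csf2, the deleted gene, had 2 UMIs in wild-type LP, 24 in wild-type SILT and 0 in both Csf2-/- libraries over all barcodes, where a count of 0 allows up to 0.156 CPM (UMIs per 1000000 UMIs of that class or library) in LP and 0.141 in SILT. Xist ranged from 266 to 825 CPM and was higher in both Csf2-/- libraries, so genotype and the mix of sexes cannot be told apart. Between 8 and 21 barcodes per library also occurred in another library. The label names CD11b+ cells, yet 800, 264, 1501 and 292 cells (wild-type LP, Csf2-/- LP, wild-type SILT, Csf2-/- SILT, an order kept below) were blood endothelial-like. Their summed endothelial markers stood at 12482 to 14288 CPM and their summed macrophage markers at 524 to 833 CPM.

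The promoter letters of the GBP genes are shown because these members are treated together below, although they did not move together in every cell class. The 5 listed GBP genes lie side by side on chromosome 3 (chr3:142493978-142638008, GRCm38, GENCODE annotation, 144 kb). RefSeq promoter windows (GRCm38.p6, 250 bases before to 50 after a start) were found for 25 of the 31 members. The ISRE-form word GAAANNGAAA on either strand was in the window of 15 of those 25 genes (60%), against 3.99% of 27025 genes with a window, and the GAS-form word TTCNNNGAA was in 8 of 25 (32%) against 9.55%. All 5 chromosome 3 GBP genes held the ISRE-form word, and 2 of them the GAS-form word. A match is a description of letters. Capitals mark the ISRE-form word, which on the strand printed reads as its reverse complement except in Isg15, and the GBP genes come in chromosomal order.
Gbp5, chr3:142496739-142496808, plus strand: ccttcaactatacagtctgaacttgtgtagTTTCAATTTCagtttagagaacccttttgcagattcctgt
Gbp7, chr3:142530253-142530322, plus strand: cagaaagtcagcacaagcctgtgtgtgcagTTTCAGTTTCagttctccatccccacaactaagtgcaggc
Gbp3, chr3:142559975-142560025, plus strand: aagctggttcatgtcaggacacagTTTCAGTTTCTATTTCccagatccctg
Gbp2b, chr3:142594680-142594749, plus strand: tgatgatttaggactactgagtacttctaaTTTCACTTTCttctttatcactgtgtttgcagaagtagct
Gbp2, chr3:142620594-142620623, plus strand: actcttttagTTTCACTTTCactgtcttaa
Rsad2, chr12:26456533-26456602, minus strand: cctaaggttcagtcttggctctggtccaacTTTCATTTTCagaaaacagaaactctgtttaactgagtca
Isg15, chr4:156200845-156200914, minus strand: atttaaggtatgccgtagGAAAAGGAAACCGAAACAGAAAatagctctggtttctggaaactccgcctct
The word nearest the start lay 165 bases before it in Gbp5 and 39 bases before it in Gbp3, where a pair of words overlap. In Gbp2 the word lies 59 bases before the RefSeq start and touches an exon of the GENCODE annotation.

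Blood endothelial-like cells held the highest level of 20 of the 31 members in wild-type LP, 11 in Csf2-/- LP, 16 in wild-type SILT and 15 in Csf2-/- SILT. In Csf2-/- LP the 27 neutrophil-like cells were highest for 15 members. In wild-type LP that class had 16 cells, under the minimum of 20, and was not ranked, so the LP counts compare unlike sets of classes. The share of all genes highest in endothelial-like cells was not counted, so no count of highest members can be read as an enrichment. Of the 31 members, 11 were highest in endothelial-like cells in all 4 libraries, namely Stat2, Ifi44, Ifih1, Xaf1, Gbp5, Gbp7, Irgm1, Igtp, Iigp1, Ifi47 and Parp14. Rsad2, which encodes the antiviral enzyme viperin, stood at 555, 456, 397 and 393 CPM in endothelial-like cells and at 7.33, 4.11, 8.12 and 1.73 CPM in LYVE1/FOLR2 macrophage-like cells. The levels of the 2 classes did not overlap. Iigp1, an IRG that damages parasite vacuoles, stood at 615, 453, 605 and 408 CPM in endothelial-like cells, and Bst2 at 339, 403, 486 and 474 CPM. Iigp1 was the highest member in both wild-type libraries, Rsad2 in Csf2-/- LP and Bst2 in Csf2-/- SILT. Gbp7 was the third-highest member in wild-type LP, at 372 CPM. Ifi44 showed the same split, with 137, 114, 120 and 95.6 CPM in endothelial-like cells and at most 2.09 CPM in Chil3 monocyte-like cells. Thinned to 1000 UMIs per cell, 36.4%, 31.8%, 28.5% and 25% of endothelial-like cells had an Rsad2 UMI, against at most 0.743% of LYVE1/FOLR2 macrophage-like cells, and the unthinned endothelial shares were 82.2%, 68.6%, 69.1% and 71.9%. Among the endothelial clusters Rsad2 differed, from 603 CPM in the main cluster of wild-type LP to 22.7 CPM in a small cluster of wild-type SILT where Iigp1 was 786 CPM.

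**Figure D1:**
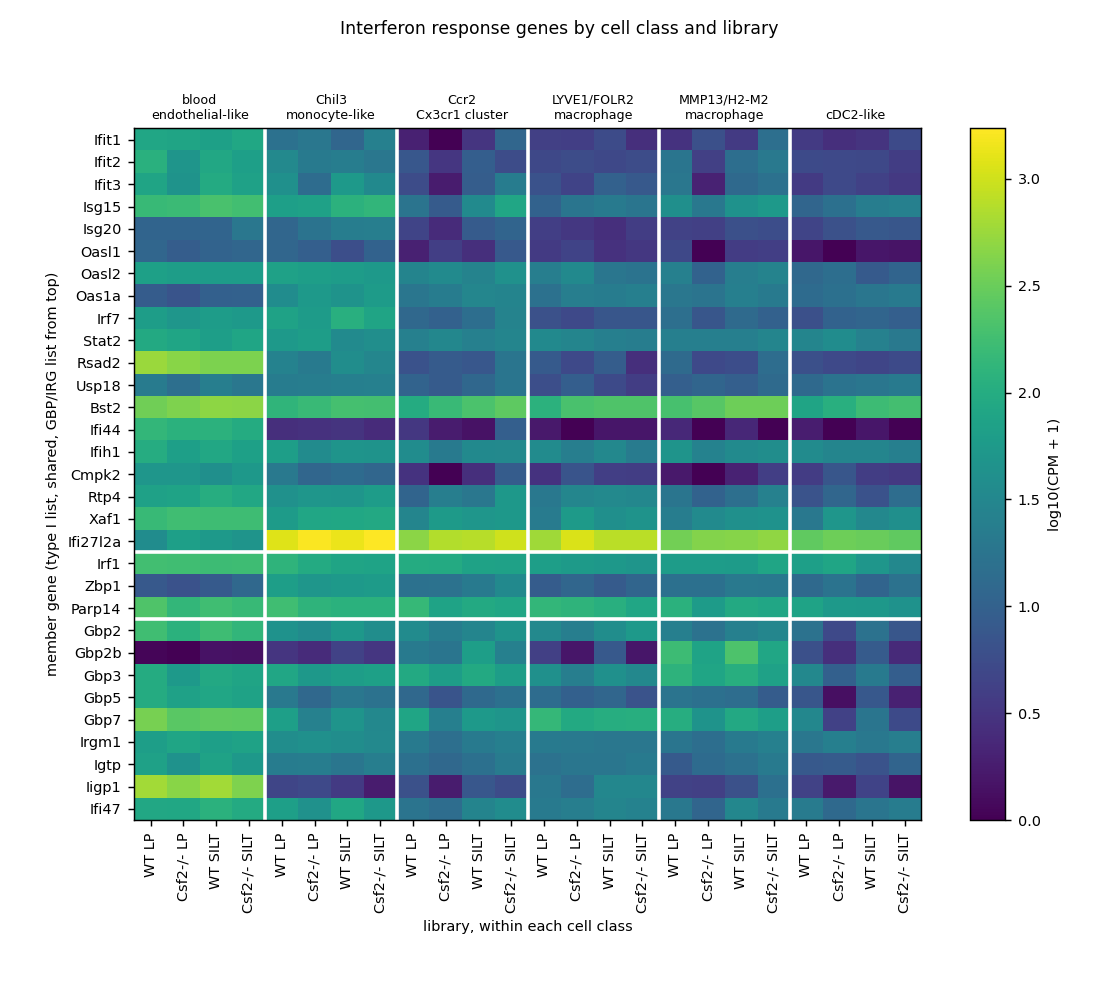
Level of each member (rows) in 6 cell classes and 4 libraries (columns), as log10(CPM + 1), with white lines between classes and lists. The endothelial-like columns are bright for Rsad2, Iigp1 and Gbp7, Ifi27l2a is bright in the myeloid columns, and Gbp2b is bright in MMP13/H2-M2 macrophage-like cells.

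Myeloid cells differed from the endothelium by member. Ifi27l2a, an interferon-induced membrane protein gene, stood at 1196, 1644, 1376 and 1720 CPM in Chil3 monocyte-like cells and at 36.8 to 67.0 CPM in endothelial-like cells, so its order was the reverse of that of Rsad2. Without Ifi27l2a and Bst2, the type I list summed to 642, 605, 738 and 729 CPM in Chil3 monocyte-like cells and to 1747, 1487, 1602 and 1510 CPM in endothelial-like cells. Neutrophil-like cells were few (27, 24 and 38 cells outside wild-type LP), and the same sum there was 2862, 1045 and 1819 CPM. Single cells carried much of it. In Csf2-/- LP the highest cell for each gene held 38 of 49 Rsad2 UMIs and 31 of 33 Ifit3 UMIs. In Csf2-/- SILT it held 26 of 27 Ifit3 UMIs and 21 of 22 Ifit2 UMIs. Whether the same cell was highest for both genes was not checked. Bst2 encodes tetherin, a protein that holds budding virus at the membrane. In SILT it was highest in cells of the Il22ra2 clusters (976 CPM in wild type and 1324 CPM in Csf2-/-), clusters that stay unnamed here. In Csf2-/- SILT 1 cell held 95 of their 450 Bst2 UMIs. Plasma-like cells came next in SILT, at 739 and 657 CPM. In LP, where the Il22ra2 clusters had 5 and 3 cells and were not ranked, plasma-like cells were highest, at 614 and 662 CPM. Behind Ifi27l2a, the highest members of macrophage-like cells were Bst2 (129, 218, 266 and 285 CPM), Parp14 (135, 101, 101 and 81.8 CPM) and Gbp7 (138, 74.4, 98.0 and 82.5 CPM). Ifi44 was lowest there, at 0 to 0.868 CPM. Ifi27l2a and Bst2 stood at 280 and 76.5 CPM in cDC2-like cells of wild-type LP. The macrophage-like cells fell into a subset led by Lyve1 and Folr2 and a subset led by Mmp13 and H2-M2.

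Gbp2b, a GBP gene formerly called Gbp1, was highest in the MMP13/H2-M2 subset in all 4 libraries, although no member was used in the clustering. Its levels there were 165, 75.2, 215 and 80.9 CPM, and in the LYVE1/FOLR2 subset 3.06, 0.587, 6.98 and 0.575 CPM. It was not confined to that subset. In SILT, cells of the Il22ra2 clusters came second, at 103 CPM in wild type and 61.8 CPM (38.2 to 94.4) in Csf2-/-. The ratio of the subsets was 53.8-fold in wild-type LP and 30.8-fold in wild-type SILT, and the Csf2-/- values of the second subset rest on 1 UMI each. Iigp1 had the opposite order, with 3.33 CPM in the MMP13/H2-M2 subset and 18.7 CPM in the LYVE1/FOLR2 subset of wild-type LP. Gbp3 was 2.95-, 3.42-, 2.55- and 2.23-fold higher in the MMP13/H2-M2 subset. The median log2 ratio of the subsets (MMP13/H2-M2 over LYVE1/FOLR2) for the GBP/IRG list was -0.22, -0.51, 0.08 and -0.22. For the type I list it was 0.27, -0.45, 0.16 and 0.57. The medians over all genes tested (8048 in wild-type LP) were -0.19, -0.31, -0.19 and -0.19.

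**Figure D2:**
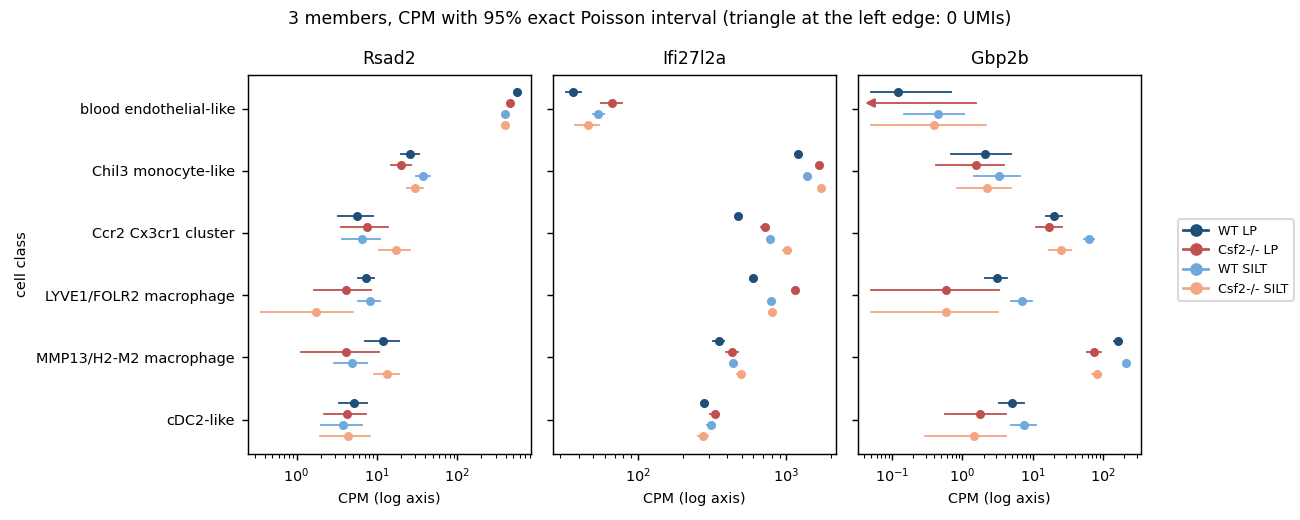
CPM on a log axis of Rsad2, Ifi27l2a and Gbp2b in 6 cell classes, 1 point per library, with 95% exact Poisson intervals. Rsad2 is highest in endothelial-like cells, Ifi27l2a in Chil3 monocyte-like cells and Gbp2b in MMP13/H2-M2 macrophage-like cells.

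In cDC2-like cells, a conventional dendritic cell class, the chromosome 3 GBP genes were lower in Csf2-/- libraries of both tissues. Gbp7 stood at 30.8 CPM in wild-type LP, 3.17 in Csf2-/- LP, 17.2 in wild-type SILT and 4.32 in Csf2-/- SILT. That is 9.72-fold lower in Csf2-/- LP (95% conditional binomial interval 4.99 to 21.7) and 3.97-fold lower in Csf2-/- SILT (1.96 to 9.11). Gbp3 was 31.8 against 8.81 CPM in LP and 20.4 against 8.16 in SILT. Gbp2, like Gbp3 a GTPase that coats microbial vacuoles, was 15.8 against 4.23 CPM in LP and 15.4 against 6.24 in SILT. Gbp5, which promotes inflammasome assembly, was under the floor for testing and counted 32 UMIs against 1 in LP and 23 against 2 in SILT. Gbp2b, also under the floor, counted 26 against 5 and 26 against 3. How many of all genes share the order of these 5, with both Csf2-/- libraries below both wild-type libraries, was not counted. All the wild-type Gbp2b UMIs came from cells with 3 or more C1q UMIs.

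A member was tested in a comparison if it averaged 10 CPM over the 2 libraries with 30 UMIs over both, and called when its ratio reached 1.5-fold. In cDC2-like cells of LP, 17 of 31 members were tested, 4 were lower and 1 was higher, where 9.01% of 7569 genes were lower and 3.84% higher. In SILT, 16 were tested, 4 were lower and 1 was higher, where 5.7% of 7262 genes were lower and 9.97% higher. The median log2 ratio of the 3 tested chromosome 3 GBP genes was -1.90 in LP and -1.32 in SILT, with medians over all genes of -0.06 and 0.05. This grouping was not planned beforehand and was cut from the fixed GBP/IRG list, so its median is no separate support. The median of the whole list in this class is not reported here. Of the IRG genes, Irgm1, which regulates the other IRGs, was not called and stood at 18.2, 23.6, 18.6 and 23.5 CPM. Ifi47 was called lower in LP (21.3 to 11.6 CPM) but not in SILT (16.9 against 22.1 CPM), where the lower member beside the GBP genes was Irf1 (48.8 against 31.2 CPM) and the higher one Zbp1, a sensor of unusual nucleic acid shapes, with an interval of 0.90 to 2.51-fold. Xaf1, a proapoptotic interferon target, was the highest ratio in LP, at 19.0 against 49.0 CPM (2.58-fold, 1.98 to 3.38). The type I list as a whole had medians of 0.35 in LP and 0.15 in SILT.

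**Figure D3:**
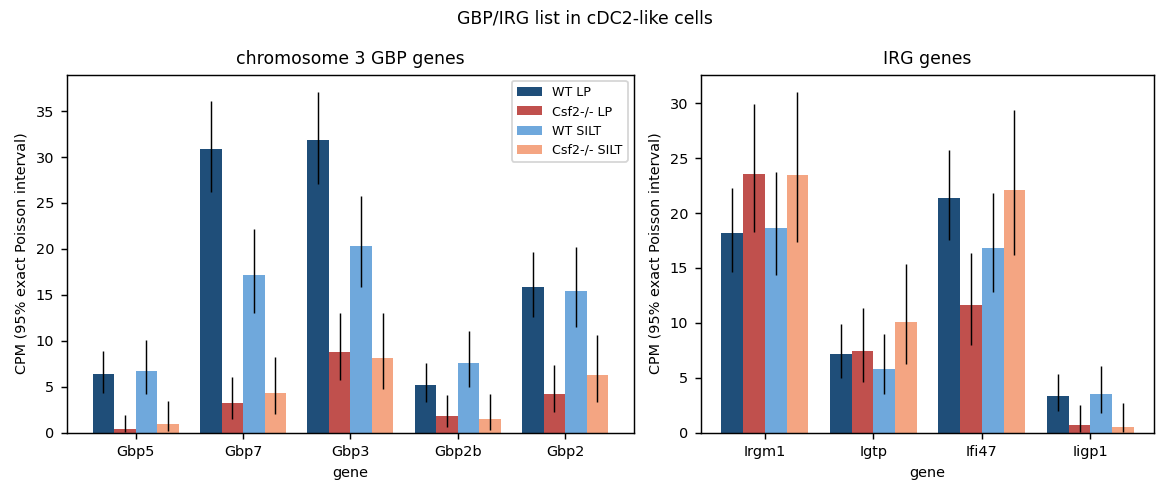
CPM of the 5 chromosome 3 GBP genes (left) and the 4 IRG genes (right) in cDC2-like cells of each library, as bars from 0 with 95% exact Poisson intervals. The Csf2-/- bars are below the wild-type bars for all 5 GBP genes. Of the 4 IRG genes, Irgm1 and Igtp are level or higher, and Ifi47 is lower in LP and higher in SILT. Depth limits Gbp5, Gbp2b and Iigp1.

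The share of cDC2-like cells with 3 or more C1q UMIs (C1q is a macrophage product) moved with this result: 45.2% in wild-type LP, 11.2% in Csf2-/- LP, 33.4% in wild-type SILT and 14.1% in Csf2-/- SILT. A fixed cut of 3 UMIs depends on depth, and the medians of this class were 14436, 10872, 9968.5 and 9550 UMIs per cell. The part of depth in these shares was not tested. The summed CPM of the 12 macrophage markers was 1732, 1133, 1440 and 1059, with none of them at 0. Within cells under 3 C1q UMIs, Gbp7 was 21.8 against 1.65 CPM in LP (57 against 4 UMIs) and 11.9 against 4.56 in SILT (25 against 8 UMIs). Gbp3 and Gbp2 were also lower there, by log2 ratios of -2.48 and -1.85 in LP and -2.59 and -2.39 in SILT. Gbp5 counted 18 against 0 UMIs there in LP and 15 against 1 in SILT. Gbp2b was hardly detected in these cells, with 0 against 0 UMIs in LP and 0 against 1 in SILT, so its wild-type counts lay wholly in cells with more C1q. This stratum still differed by genotype, as cells with no C1q UMI were 14.1%, 41.6%, 25% and 45.1% of the class. In cells with none, Gbp7 had 15 against 2 UMIs in LP and only 4 against 2 in SILT. Within cells of 3 or more C1q UMIs, of which only 30 came from each Csf2-/- library, Gbp7 remained lower, at 40.5 against 12.04 CPM in LP (99 against 5 UMIs) and 25.3 against 3.04 in SILT (34 against 1 UMI). Gbp3 was not called lower in those cells, at 51.1 against 45.8 CPM in LP (95% interval of the log2 ratio -0.94 to 0.54) and 25.3 against 36.5 in SILT (-0.55 to 1.52). Gbp2 was 18.4 against 7.23 CPM in LP and 20.8 against 27.4 in SILT, with both intervals spanning 0. Gbp2b was 10.6 against 12.04 CPM in LP and 19.3 against 6.08 in SILT, also with intervals spanning 0. The part of the C1q-bearing cells in the result was not tested. These splits were chosen after seeing the data.

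Gbp7 was also lower in monocyte-like cells of Csf2-/- LP. In Chil3 monocyte-like cells of LP, Gbp7 was 66.5 against 25.4 CPM (2.62-fold lower, 1.95 to 3.55), Ifit3 40.7 against 13.1 (3.11-fold, 2.08 to 4.75) and Ifih1, the RNA sensor MDA5, 63.5 against 35.4 (1.80-fold, 1.38 to 2.36). Isg20, Oas1a and Xaf1 had the highest ratios there, at 1.52-fold (0.91 to 2.61), 1.47-fold (1.11 to 1.94) and 1.39-fold (1.12 to 1.74). Of 27 members tested, 8 were lower and 1 higher, where 5.67% of genes were lower and 4.8% higher. In SILT the same class had 2 lower (Ifit3 and Ifi47) and 1 higher (Ifit1, 10.9 against 24.9 CPM) of 27, where 3.84% and 12.6% of all genes were. Gbp7 was 46.8 against 31.3 CPM there, just short of 1.5-fold (1.12 to 2.01). Whether LP and SILT differ in these ratios was not tested.

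**Figure D4:**
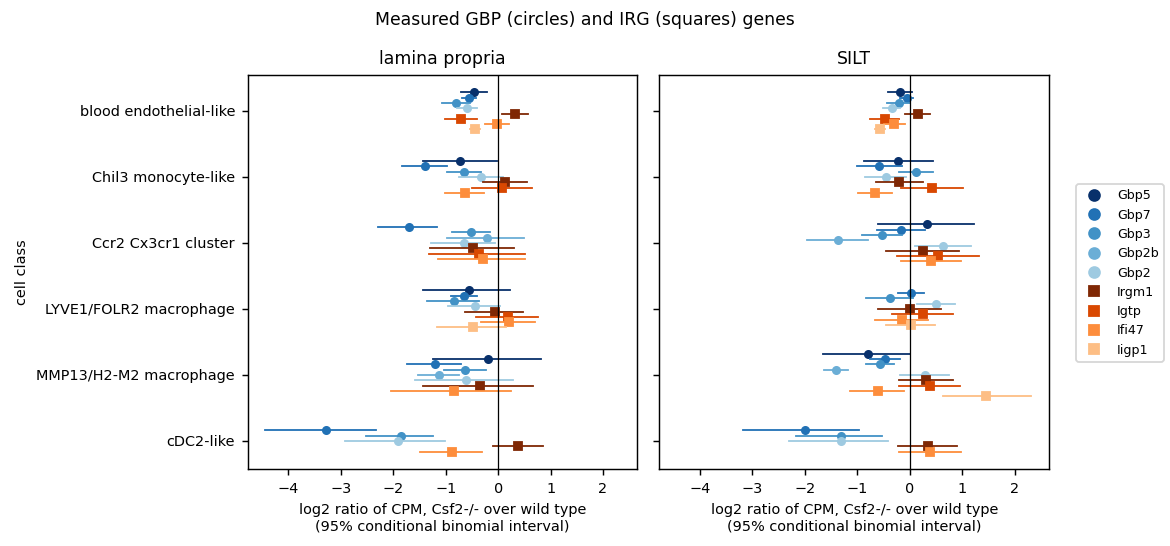
Log2 ratio of CPM, Csf2-/- over wild type, of each tested GBP gene (circles) and IRG gene (squares) in 6 cell classes, in LP and SILT, with 95% conditional binomial intervals. The 3 cDC2-like GBP circles lie between -3.28 and -1.85 in LP and between -1.99 and -1.30 in SILT, where Gbp2b of the MMP13/H2-M2 subset lies at -1.41.

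In blood endothelial-like cells of LP, 27 members were tested, 8 were lower and 1 higher in Csf2-/-, where 4.72% of 8470 genes were lower and 4.23% higher. Ifit2, which restricts translation of viral RNA, was 111 against 47.9 CPM (2.31-fold lower, 1.90 to 2.83). Gbp3 was 95.9 against 55.1 CPM and Ifit3 76.0 against 44.5. Ifi27l2a was higher (36.8 against 67.0 CPM), followed by Irgm1 and Bst2 at 1.24- and 1.19-fold. Immediate early and heat-shock genes, which rise during tissue handling, had a median log2 ratio of 0.38 in this comparison, and their part in the result was not tested. The class was also mixed differently: its main cluster held 676 of 800 wild-type and 184 of 264 Csf2-/- LP cells, and a second cluster 96 and 62. Within the main cluster 7 of 27 members were lower and 0 higher, where 5.04% and 4.05% of genes were, with Ifit2 at 116 against 53.9 CPM and Gbp3 at 96.2 against 46.5. Within the second cluster 3 of 25 were lower and 3 higher, where 11.6% and 9.16% of genes were. Ifit2 (95.3 against 42.0 CPM) and Ifit3 were lower in both clusters. Ifi27l2a was 56.9 against 241 CPM in the second cluster and 28.9 against 21.54 CPM in the main one, so its higher level did not hold in the main cluster. In SILT, none of 28 tested members was lower and 1 was higher (Isg20, 10.2 against 17.9 CPM), where 3.11% and 9.3% of all genes were. The lowest ratios there were those of Iigp1 (605 against 408 CPM), Igtp and Ifit3, all under 1.5-fold, and after Isg20 the highest were Cmpk2 and Ifit1 (1.33- and 1.23-fold). In SILT the main cluster held 984 of 1501 cells (wild type) and 204 of 292 (Csf2-/-), and 0 of its 29 tested members were lower and 2 higher, where 3.22% and 9.39% of genes were. The second cluster (241 and 62 cells) had 3 of 26 lower and 0 higher, where 10.1% and 12.2% were. Over all tested members the median log2 ratio was -0.26 in LP and -0.17 in SILT, with medians over all genes of 0.02 and 0.06.

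In macrophage-like cells, with both subsets together, few members were called. For Csf2-/- over wild type, the type I list had a median log2 ratio of 0.13 in SILT and 0.43 in LP, and the GBP/IRG list -0.06 and -0.25, beside 0.04 and -0.04 over all genes. In LP, Xaf1 (21.2 against 48.8 CPM), Bst2 (129 against 218) and Ifi27l2a (563 against 881) were higher in Csf2-/-, and Gbp7 (138 against 74.4), Iigp1 (16.9 against 9.77) and Ifih1 (36.7 against 24.04) lower. These were 3 higher and 3 lower of 21 tested, where 5.16% of genes were higher and 6.83% lower. In SILT 1 member was lower, Gbp2b at 95.4 against 46.4 CPM (2.05-fold, 1.75 to 2.42), and 1 higher, Ifit2 at 8.14 against 12.8 (1.58-fold, 1.09 to 2.28), of 22 tested, where 2.78% and 5.4% were. Gbp2b in LP was 22.8 against 27.4 CPM over both subsets but 165 against 75.2 within the MMP13/H2-M2 subset, which held 1.67% of the wild-type and 3.61% of the mutant LP cells. In the LYVE1/FOLR2 subset of LP, 6 of 9 tested type I members were higher, and 1 lower, where 5.37% of all genes were higher and 4.71% lower. Xaf1 (21.1 against 56.9 CPM), Ifi27l2a (592 against 1134) and Isg15 (9.46 against 17.02) had the highest ratios. Gbp3 (1.80-fold lower), Gbp7 (1.57-fold) and Ifih1 (1.55-fold) had the lowest, and these 3 were the members called lower. The same list in that subset of SILT had 0 of 9 higher and 0 lower, where 8.2% and 3.64% of all genes were.

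In the MMP13/H2-M2 subset of LP, 10 of 19 tested members were lower in Csf2-/- and 1 higher, where 15% of genes were lower and 5.98% higher. Oasl2, a relative of the oligoadenylate synthetases, was 24.7 against 9.40 CPM (2.62-fold lower, 1.24 to 6.18). Gbp7 was 104 against 44.9 CPM (2.31-fold, 1.64 to 3.32) and Gbp2b 2.19-fold lower (1.68 to 2.89). The 1 higher member, Xaf1, rested on 33 and 34 UMIs with an interval of 0.91 to 2.53. In SILT, 3 of 25 were lower and 2 higher, where 3.83% and 9.67% of genes were. Gbp2b was 2.65-fold lower there (2.26 to 3.13), Gbp5 and Ifi47 were 1.74- and 1.52-fold lower, and Iigp1 (5.36 against 14.7 CPM) and Rtp4 (14.03 against 25.1 CPM) were higher. Gbp2b was thus lower in Csf2-/- in this subset of both tissues, with intervals clear of 1.

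Between tissues, wild-type macrophage-like cells of SILT had more Gbp2b (95.4 against 22.8 CPM in LP), Isg15 (30.1 against 13.1) and Bst2 (266 against 129), and 4 members were higher and 0 lower of 21, where 7.12% of genes were higher and 20.6% lower. The MMP13/H2-M2 subset held 273 of 967 of these cells in SILT and 74 of 947 in LP. Within that subset Gbp2b was 215 against 165 CPM, Isg15 44.1 against 39.3 and Bst2 328 against 199. Within the LYVE1/FOLR2 subset Isg15 was 19.6 against 9.46 CPM and Bst2 220 against 119, so Bst2 differed by over 1.5-fold in both subsets. Over both subsets, the lowest ratios were Gbp7 (98.0 against 138 CPM), Stat2 (23.9 against 32.6) and Parp14 (101 against 135). In Csf2-/- mice Iigp1 (21.49 against 9.77 CPM), Isg15 (38.3 against 17.7) and Gbp2 (40.02 against 20.7) were higher in SILT, 4 members in all of 20, where 2.15% of genes were higher and 4.5% lower. The MMP13/H2-M2 subset held 166 of 377 cells there and 71 of 278 in LP, and Isg15 was 54.1 against 18.8 CPM within it and 17.3 against 17.02 within the LYVE1/FOLR2 subset. The list medians were 0.40 and 0.09 for type I and 0.19 and 0.35 for GBP/IRG, with medians over all genes of -0.22 and -0.08. These comparisons share libraries with those of genotype.

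In an unnamed cluster with Ccl4, Cx3cr1 and Ccr2 among its leading genes, 9 of 24 tested members were higher in Csf2-/- SILT, where 13.7% of genes were. Rtp4, a chaperone of receptors induced by interferon, was 17.96 against 52.8 CPM (2.94-fold, 1.97 to 4.44), Ifit3 7.89 against 21.7 and Rsad2 6.57 against 17.1. Gbp2b was lower, at 64.0 against 24.8 CPM, and it was the 1 member called lower, where 4.83% of genes were. In LP, 4 of 20 members were higher and 5 lower in that cluster, where 6.16% and 8.29% of genes were. Gbp7 (78.2 against 24.04 CPM) and Isg15 (16.8 against 7.51) had the lowest ratios, and Rtp4 (9.90 against 23.3) and Xaf1 (28.7 against 56.3) the highest. Isg15 in this cluster was therefore lower in Csf2-/- LP and, at 34.2 against 82.3 CPM, higher in Csf2-/- SILT.

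Of the rest of the pathway, none of 9 interferon ligand genes passed the floor in macrophage-like, cDC2-like or endothelial-like cells. Ifng, the gene of interferon gamma, was measured in the unnamed cluster of T and NK genes, at 75.2 CPM (57 UMIs) in wild-type SILT and 66.3 CPM (19 UMIs) in Csf2-/- SILT. The receptor genes were present: Ifngr1, the ligand-binding chain for interferon gamma, stood at 344, 263, 367 and 275 CPM in macrophage-like cells, and Ifnar1, a type I receptor chain, at 141, 127, 128 and 122 CPM. Ifnlr1, the lambda receptor chain, was at 0 to 0.434 CPM. None of the 5 tested receptor genes was called between genotypes in macrophage-like cells of either tissue. Irf9, a transcription factor gene of the type I pathway, stood at 53.3, 54.5, 48.8 and 43.0 CPM. Of 39 further interferon targets, 28 were tested in LP macrophage-like cells, with 0 higher and 6 lower, and 29 in SILT, with 2 higher and 2 lower, where the shares over all genes, higher and lower, were 5.16% and 6.83% in LP and 5.4% and 2.78% in SILT. Cxcl9, an interferon gamma target, stood at 21.7 CPM in wild-type and 82.01 CPM in Csf2-/- SILT macrophage-like cells. However, 272 of the 273 Cxcl9 UMIs of the LYVE1/FOLR2 subset in Csf2-/- SILT came from 1 of its 211 cells. Over both subsets of SILT, Cxcl10 was 29.3 against 72.9 CPM. It was 64.0 against 121 CPM in the MMP13/H2-M2 subset and 3.59 against 8.63 CPM in the LYVE1/FOLR2 subset. In cDC2-like cells, Eif2ak2 and Jak2 had the lowest pathway ratios in LP (44.3 against 25.02 and 166 against 97.6 CPM), and Ifitm3 (788 against 1393) and Parp12 (11.7 against 19.7) the highest.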

How the data were processed

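Droplet 3′ gene expression was measured with the single cell 3′ version 2 chemistry, per the labels' protocols. The authors deposited UMI counts per gene and barcode; Cell Ranger 2.1.1 and mm10 stand in the submitters' processing notes, whereas the file headers name Cell Ranger 6.0.0. The disagreement was not resolved. Cells needed 200 detected genes and a mitochondrial share of no more than 10%, Scrublet doublets (7 to 136 per library) were removed, and the 4 libraries clustered together (scanpy 1.11.5, 2000 variable genes without interferon genes, 30 components, Leiden resolution 1). Clusters were called "X-like" from fixed markers. Counts were summed per class and library and scaled to CPM, with exact 95% Poisson and conditional binomial intervals. With 1 library per group there is no test. Named are, per comparison and class, the 3 largest and 3 smallest ratios among members averaging 10 CPM with 30 UMIs over both libraries, the highest members per class, and the receptors, Irf9, Cxcl9 and Cxcl10. The result for 1 further gene of that rule is not reported here. Classes other than macrophages and subclasses were described by choice. Members and lists were chosen with earlier results of these data known. The interval code was tested on simulated data.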

Additional observations from a re-analysis of the deposited data

How the results depend on the processing

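No paired analysis was possible because each group is 1 library without replicate numbers. Of 174 alternative values for the main results, 162 stayed within the interval of the reported value (counts within 1.5 times it), 11 moved and 1 reversed. For a list median that interval reflects the spread of its members, so it can be wide. A median counted as reversed only where that interval did not span 0, so other changes of sign count as stayed or moved. Among these, the type I median in LP macrophage-like cells (Csf2-/- over wild type) reached -0.05. The subset median of the GBP/IRG list in wild-type LP went from -0.22 to 0.23. That of the type I list in wild-type SILT reached -0.18. The reversed value was the GBP/IRG median between tissues in Csf2-/- macrophage-like cells, -0.82 when cells were thinned to 1000 UMIs, resting on 1 member. Taking all cells with at least 2 C1q UMIs as macrophages turned the wild-type tissue medians to -0.36 (type I) and -0.40 (GBP/IRG). With a 2-fold threshold, the members called were 0 (SILT, higher), 1 (LP, higher), 0 (LP, lower) and 2 (Csf2-/- between tissues, higher). The subset median of the GBP/IRG list in wild-type SILT became 1.65 after thinning. The cDC2-like GBP median was an unplanned grouping, and its alternatives were chosen after seeing the data. It was -1.28 in SILT and -1.82 in LP without mitochondrial and ribosomal protein genes. In LP it was -1.67 with the stricter cell filter and -1.83 with doublets kept. It ranged from -1.78 to -1.28 in SILT and from -2.85 to -1.67 in LP. Thinning moved 26 of 40 class levels and keeping interferon genes in the clustering 8 of 40. For single GBP genes, 25 alternatives fell below the 10 CPM and 30 UMI floor and carry no verdict. The floor was applied to them after a first version without it showed 2 opposite signs, Gbp7 and Gbp2 in SILT cDC2-like cells at 0.27; both came from 0 against 4 UMIs after thinning, where the 0 was set to 3 counts. A further one, Gbp2 in LP without any C1q-bearing cells, was -0.41 from 6 against 5 UMIs. Depth limits Gbp5, Gbp2b and Iigp1 in cDC2-like cells.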

Other observations

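None of 3 guanylate-binding genes on chromosome 5 was called in cDC2-like cells, and Gbp4 was under the floor in SILT. Gbp4 stood at 15.8, 16.2, 8.72 and 6.72 CPM (wild-type LP, Csf2-/- LP, wild-type SILT, Csf2-/- SILT), Gbp8 at 13.04, 13.4, 12.2 and 13.4 CPM, and Gbp9 at 20.4, 16.6, 12.5 and 15.4 CPM. In macrophage-like cells Gbp9 was 1.68-fold lower in SILT of Csf2-/- (95% conditional binomial interval 1.22 to 2.34). In blood endothelial-like cells the IRG-related genes Tgtp1 and Tgtp2 had the lowest pathway ratios in SILT, 48.9 against 12.5 and 78.7 against 27.3 CPM, and Tgtp2 the lowest in LP, 63.8 against 21.6 CPM. Tgtp1 and Tgtp2 are near copies, and Gbp4, Gbp8 and Gbp9 overlap in the annotation, so how their reads were divided is uncertain. Tgtp1 and Tgtp2 also lie on the chromosome of Csf2, at distances given below.

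Irf1, a transcription factor gene, lies 0.477 Mb from Csf2 on chromosome 11 (GRCm38). That chromosome also holds Igtp at 3.95, Ifi47 at 5.17, Tgtp2 at 5.19, Tgtp1 at 5.26, Irgm1 at 5.39 and Xaf1 at 18.05 Mb from Csf2. Whether nearness to the deleted gene has a part in the ratios of these genes was not tested. In cDC2-like cells Irf1 stood at 66.8, 79.3, 48.8 and 31.2 CPM, so the Csf2-/- library was higher in LP and lower in SILT.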
